A study of Canis lupus familiaris with 8 samples.

Results

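TOP2A, NCAPG, HMMR and DLGAP5 encode proteins that condense chromosomes and build the mitotic spindle. Their mRNA was followed in MDCK I cells, an epithelial cell line from dog kidney, under hyperosmolality and after siRNA against Nfat5, the transcription factor that drives much of the cellular response to hyperosmolality. The 4 genes were chosen by name and found in the count table through the identifiers that the study's own gene list gives for these symbols, and they are 4 of 32704 annotated genes. The list is described as genes raised by hyperosmolality and lowered by each of the siRNA constructs, chosen by significance in these same libraries, so the changes in those comparisons describe the 4 genes and are not independent evidence of their direction. In the fit used here, 474 of its 860 genes with a symbol had a positive and 386 a negative log2 change with hyperosmolality, and 163 were negative in all 3 comparisons, as the 4 genes were. As described, the list did not use the comparison of the siRNA constructs with each other or the comparison of passages. It did require a fall with each construct. The 4 genes were also chosen with earlier results of these data known, so neither comparison is shown to be free of selection.

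The study held 8 RNA libraries in 4 groups of 2. Every culture received siRNA at 100 nM. Neg-siRNA, the control, was directed against Slc22a6, a gene that MDCK I cells do not express according to the labels, and it was used in medium of 300 mOsm and of 500 mOsm. Nfat5-1-siRNA and Nfat5-2-siRNA, which differ in sequence, were used at 500 mOsm only, so no library shows the siRNA against Nfat5 at 300 mOsm. The osmolality was raised with raffinose for the last 24 h. The replicate number marks the passage of the cells, 15 for replicate 1 and 17 for replicate 2. Where passage is not in the model, the p-values thus measure the spread between passages of 1 cell line. The total count per library was between 34564103 and 46043788, and the 4 genes had between 158 and 21707 counts in a library. Mitochondrial genes took 5.67% and 6.52% of the counts at 300 mOsm, 4.39% and 5.87% with Neg-siRNA at 500 mOsm, and between 4.34% and 4.65% in the 4 libraries with Nfat5-siRNA, and the part of this in the results was not tested. None of 29 listed markers of epithelial, fibroblast, endothelial or leukocyte cells could be paired with an identifier, so the labelled cell type was not checked here, and neither was the mRNA of Nfat5 itself.

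Before a cell divides, its DNA is untangled and folded into compact chromosomes. TOP2A is the DNA topoisomerase that passes one double strand through another and so separates tangled sister chromatids, and NCAPG is a subunit of condensin I, the ring-shaped complex that folds chromatin into mitotic chromosomes. HMMR, a receptor for hyaluronan at the cell surface, is also a microtubule-binding protein that positions TPX2 and Aurora A activity at the spindle poles. DLGAP5, also named HURP, binds and stabilises the microtubules that reach the chromosomes, downstream of the GTPase Ran. All of them are mostly made by cells in the later part of the cell cycle. In RNA from whole cultures, fewer dividing cells and less of a given mRNA per dividing cell cannot be told apart.

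TOP2A (ENSCAFG00000016090) lies on the plus strand of CanFam3.1 at chr9:22207403-22237674, with 6204 exonic bases in 36 blocks. NCAPG (ENSCAFG00000016677) lies on the minus strand at chr3:91281108-91322803, with 3284 exonic bases in 21 blocks. HMMR (ENSCAFG00000017192) lies on the minus strand at chr4:47744466-47786824, with 2500 exonic bases in 22 blocks, and DLGAP5 (ENSCAFG00000015026) on the minus strand at chr8:30998323-31038850, with 3930 exonic bases in 21 blocks. The genes are thus on 4 chromosomes, and 3 of them share no exonic base with another gene. NCAPG shares 510 exonic bases with ENSCAFG00000031625 on the opposite strand, and since the reads were counted without regard to strand, those that fall there cannot be assigned by strand. That overlapping gene had 18 to 36 counts in a library, or 0.428 to 1.04 CPM, which are counts scaled to the library size.

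In each of the 4 genes the mRNA was highest in Neg-siRNA (300 mOsm), lower in Neg-siRNA (500 mOsm) and lowest with either Nfat5-siRNA, and the libraries of these 3 steps did not overlap. Of 19835 genes tested, 7.0% had this falling order. CPM values here are corrected for library composition.

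In Neg-siRNA (300 mOsm) TOP2A was at 488 and 460 CPM, where replicate 1 is named first here and below, and hyperosmolality brought it to 189 and 131 CPM. With Nfat5-1-siRNA it was at 62.2 and 41.0 CPM and with Nfat5-2-siRNA at 42.4 and 33.2 CPM. The means ± SD (n = 2) were 474 ± 20.0, 160 ± 41.3, 51.6 ± 15.0 and 37.8 ± 6.50 CPM, so that 33.8%, 10.9% and 7.97% of the isosmotic mean was left. The 2 groups with Nfat5-siRNA overlapped each other. In every group at 500 mOsm the library of passage 17 was the lower one.

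NCAPG, the condensin subunit, had 161 and 165 CPM at 300 mOsm, which makes it the most even of the 4 genes between passages there. Neg-siRNA (500 mOsm) held it at 114 and 88.0 CPM, and it was at 37.6 and 29.4 CPM with Nfat5-1-siRNA and at 31.5 and 25.2 CPM with Nfat5-2-siRNA. The means ± SD (n = 2) were 163 ± 2.31, 101 ± 18.7, 33.5 ± 5.79 and 28.3 ± 4.49 CPM. Hyperosmolality thus left 62.1% of the isosmotic mean, against 30.4% to 34.7% for the other 3 genes, while 20.6% and 17.4% was left with the 2 siRNA constructs.

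HMMR was the least abundant of the 4. Its level was 53.8 and 69.0 CPM at 300 mOsm, 18.9 and 18.4 CPM with Neg-siRNA at 500 mOsm, 4.32 and 4.17 CPM with Nfat5-1-siRNA and 5.66 and 3.74 CPM with Nfat5-2-siRNA. The means ± SD (n = 2) were 61.4 ± 10.7, 18.7 ± 0.396, 4.24 ± 0.104 and 4.70 ± 1.36 CPM, or 30.4%, 6.91% and 7.66% of the isosmotic mean. Both libraries of Nfat5-1-siRNA lay inside the range of the Nfat5-2-siRNA libraries.

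DLGAP5 had the steepest course. From 223 and 259 CPM at 300 mOsm it came to 93.5 and 73.8 CPM with Neg-siRNA at 500 mOsm, to 12.9 and 10.9 CPM with Nfat5-1-siRNA and to 9.97 and 7.60 CPM with Nfat5-2-siRNA. The means ± SD (n = 2) were 241 ± 25.5, 83.6 ± 13.97, 11.9 ± 1.41 and 8.79 ± 1.67 CPM, so that 34.7%, 4.95% and 3.65% of the isosmotic mean was left. Its libraries with Nfat5-2-siRNA lay below those with Nfat5-1-siRNA without overlap, as they did in 23.9% of all genes tested, a share that 1 of 4 genes does not stand apart from.

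**Figure D1:**
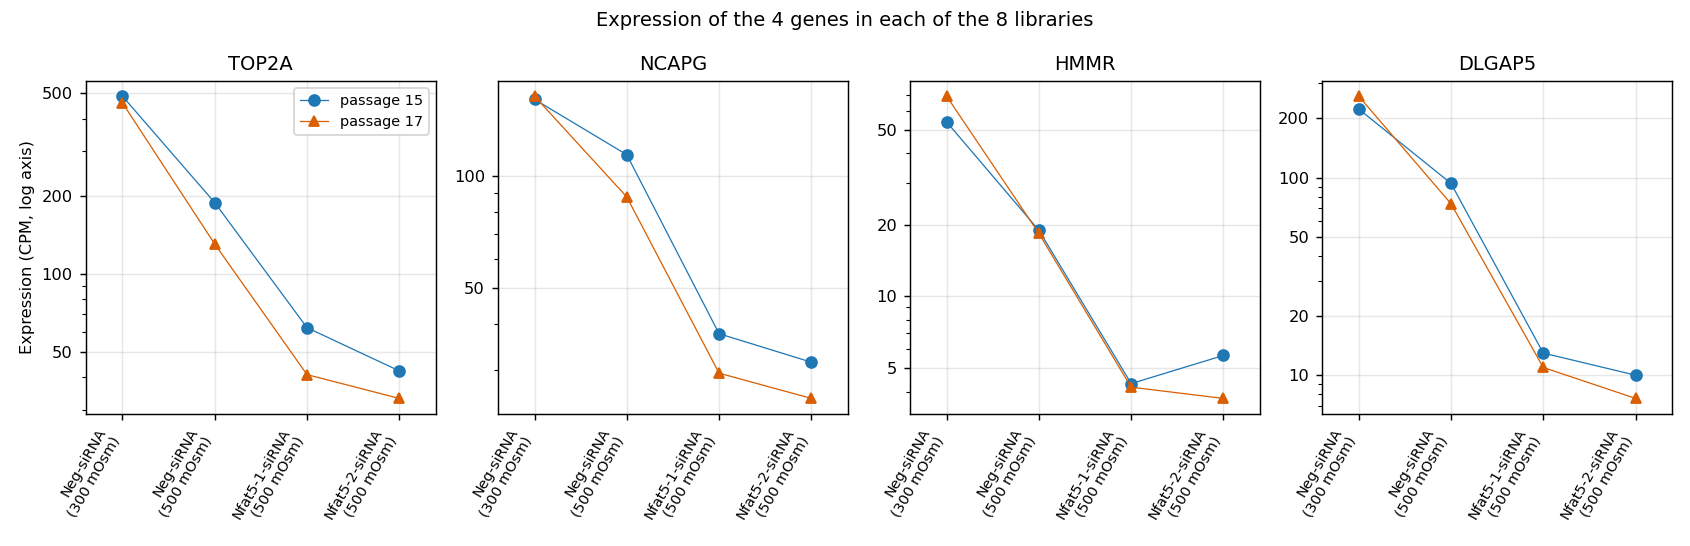
Expression (CPM, log axis, a separate scale for each gene) of the 4 genes in the 4 groups, with circles for passage 15 and triangles for passage 17 and a line joining the libraries of 1 passage. All 4 genes step down from 300 mOsm to 500 mOsm and again with either Nfat5-siRNA, and DLGAP5 falls to the smallest share of its isosmotic level.

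Per exonic length (RPKM, the CPM divided by the exonic length in kilobases), the order of the 4 mRNAs changed with the treatment. The length of NCAPG includes the 510 bases that it shares with another gene. Whether reads there were counted for NCAPG was not checked. If they were not, its RPKM is too low in every group, and its place below DLGAP5 at 300 mOsm is uncertain. In Neg-siRNA (300 mOsm) the mean ± SD (n = 2) was 76.4 ± 3.23 RPKM for TOP2A, 61.3 ± 6.48 for DLGAP5, 49.7 ± 0.702 for NCAPG and 24.6 ± 4.29 for HMMR. In Neg-siRNA (500 mOsm) it was 30.8 ± 5.69 RPKM for NCAPG, 25.8 ± 6.66 for TOP2A, 21.3 ± 3.55 for DLGAP5 and 7.46 ± 0.158 for HMMR, where the means of TOP2A and its neighbours in this order were within their spread, and the libraries of NCAPG and DLGAP5 did not overlap. Within each of these 2 libraries the order was the same, with NCAPG above TOP2A and TOP2A above DLGAP5. With Nfat5-1-siRNA it was 10.2 ± 1.76 RPKM for NCAPG, 8.32 ± 2.42 for TOP2A, 3.03 ± 0.359 for DLGAP5 and 1.70 ± 0.0415 for HMMR, where the libraries of DLGAP5 lay above those of HMMR without overlap. With Nfat5-2-siRNA it was 8.63 ± 1.37 RPKM for NCAPG, 6.09 ± 1.05 for TOP2A, 2.24 ± 0.426 for DLGAP5 and 1.88 ± 0.543 for HMMR, where DLGAP5 and HMMR were within their spread, with DLGAP5 the higher in both libraries. Among the 19835 genes tested, ordered by mean RPKM, TOP2A stood at place 1270 in Neg-siRNA (300 mOsm) and at 4035, 7766 and 8575 in the next 3 groups. DLGAP5 moved from place 1640 to 4694, 10019 and 10677.

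With hyperosmolality, the comparison of Neg-siRNA (500 mOsm) with Neg-siRNA (300 mOsm), TOP2A fell with a log2 change of -1.57 (SE 0.22), HMMR with -1.72 (SE 0.20) and DLGAP5 with -1.53 (SE 0.18), and their adjusted p-values in edgeR's quasi-likelihood test were 0.00102, 0.000242 and 0.000225. These are falls of 2.96-fold, 3.29-fold and 2.88-fold. NCAPG was lower in both libraries, with a log2 difference of -0.69 (SE 0.18), but its adjusted p was 0.0821. With passage as a block in the edgeR model, which pairs the replicates of the same number, NCAPG had a log2 change of -0.71 and passed with an adjusted p of 2.76e-05. The block takes out the passage difference that the groups share, so p-values with it measure only the spread that remains. Thus 3 of the 4 genes were called lower, and 4 with the block, where 9.23% and 15.7% of all genes tested were, and 32.2% of all genes tested had both libraries at 500 mOsm below both at 300 mOsm, as the 4 genes had. Within passage 15 the log2 ratios were -1.37 for TOP2A, -0.50 for NCAPG, -1.51 for HMMR and -1.25 for DLGAP5. Within passage 17 they were -1.81, -0.90, -1.91 and -1.81, larger for each of the 4, and this difference between passages was not tested.

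With Nfat5-1-siRNA against Neg-siRNA at the same 500 mOsm, all 4 genes fell, where 4.53% of all genes tested were called lower and 32.9% were lower without overlap. The log2 change was -1.63 (SE 0.22) for TOP2A, -1.59 (SE 0.18) for NCAPG, -2.14 (SE 0.21) for HMMR and -2.81 (SE 0.19) for DLGAP5, with adjusted p-values in edgeR's test of 0.00287, 0.000919, 0.000396 and 3.76e-05. NCAPG, which had the smallest hyperosmotic difference, was thus 3.02-fold below its control, and DLGAP5 was 7.02-fold below. The ratios within the passages were close to each other, from -1.61 and -1.68 for TOP2A to -2.86 and -2.76 for DLGAP5. Without Nfat5-1-siRNA replicate 2 the call was lost for TOP2A (log2 change -1.36, adjusted p = 0.132 in edgeR) and for NCAPG (-1.43, adjusted p = 0.0760), and without Neg-siRNA (500 mOsm) replicate 1 it was lost for TOP2A (-1.28, adjusted p = 0.0517).

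Nfat5-2-siRNA lowered all 4 genes too, where 7.38% of all genes tested were called lower and 32.1% were lower without overlap. The log2 change was -2.08 (SE 0.22) for TOP2A, -1.84 (SE 0.18) for NCAPG, -1.99 (SE 0.21) for HMMR and -3.25 (SE 0.19) for DLGAP5, with adjusted p-values in edgeR's test of 0.000358, 0.000207, 0.000332 and 1.28e-05. These are falls of 4.24-fold, 3.57-fold, 3.96-fold and 9.51-fold. Within passages 15 and 17 the log2 ratios were -1.74 and -2.30 for HMMR, the widest gap of the 4, -2.16 and -1.98 for TOP2A, -1.86 and -1.81 for NCAPG, and -3.23 and -3.28 for DLGAP5. Both siRNA comparisons share the Neg-siRNA (500 mOsm) libraries, which are also the treated group of the hyperosmolality comparison. Among the 10351 genes whose mean reached 5 CPM, counted from the lowest log2 change, DLGAP5 stood at place 13 with Nfat5-2-siRNA and at place 25 with Nfat5-1-siRNA. With hyperosmolality it stood at place 422, and NCAPG at 1766.

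Against Neg-siRNA (300 mOsm), the whole distance was largest for DLGAP5, with 20.2-fold under Nfat5-1-siRNA and 27.4-fold under Nfat5-2-siRNA. It was 14.5-fold and 13.1-fold for HMMR, 9.19-fold and 12.6-fold for TOP2A, and 4.86-fold and 5.75-fold for NCAPG. All genes tested were lower without overlap in 34.9% and 32.7% of cases in these 2 comparisons, as the 4 genes were. Counted over the 3 comparisons with edgeR, TOP2A, HMMR and DLGAP5 were called lower in all of them, as were 0.58% of all genes tested. With passage as a block all 4 were, as were 1.95% of all genes tested.

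**Figure D2:**
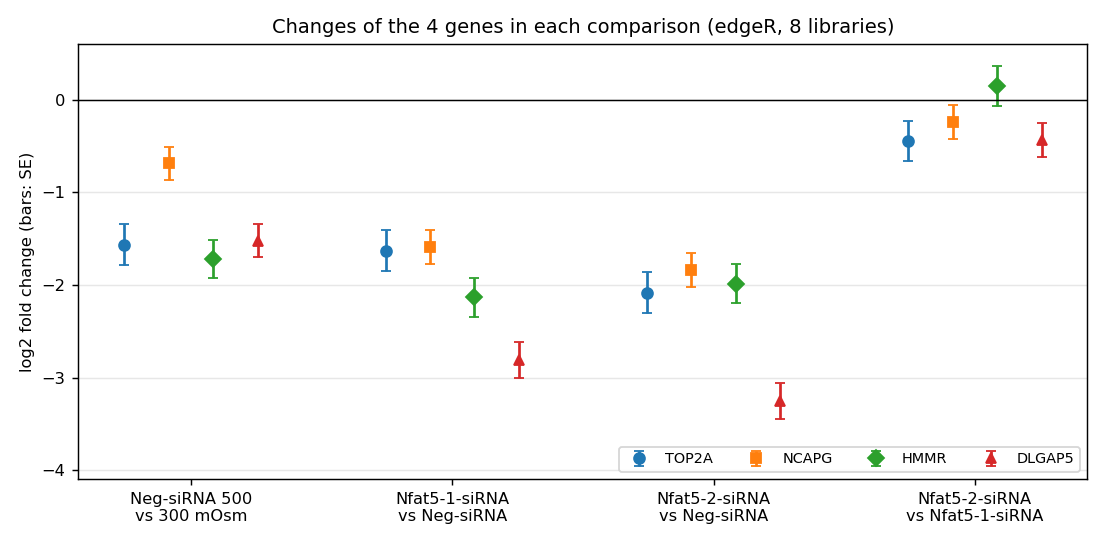
Log2 fold change of the 4 genes from the edgeR fit of 8 libraries (bars show the SE) in 4 comparisons. NCAPG stands apart in the hyperosmolality comparison at -0.69, DLGAP5 in both comparisons of Nfat5-siRNA with Neg-siRNA at -2.81 and -3.25, and the values between the siRNA constructs lie between -0.45 and 0.15.

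The ratio of 2 genes within a library does not depend on how libraries are scaled, and the pairs of genes differed in the step at which their ratio moved. TOP2A relative to NCAPG was 1.60 and 1.48 at 300 mOsm, as a ratio of RPKM, and 0.876 and 0.788 with Neg-siRNA at 500 mOsm. With Nfat5-1-siRNA it was 0.876 and 0.737, which overlaps Neg-siRNA at the same osmolality, and with Nfat5-2-siRNA 0.712 and 0.698, slightly below it. The drop in TOP2A relative to NCAPG was therefore mostly found between 300 and 500 mOsm.

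DLGAP5 relative to TOP2A had the other course. The ratio was 0.720 and 0.888 at 300 mOsm and 0.779 and 0.889 with Neg-siRNA at 500 mOsm, which overlap. It was 0.327 and 0.420 with Nfat5-1-siRNA and 0.372 and 0.362 with Nfat5-2-siRNA, lower than in each of the 4 Neg-siRNA libraries. The spindle gene HMMR relative to NCAPG was 0.438 and 0.551 at 300 mOsm and 0.217 and 0.274 with Neg-siRNA at 500 mOsm. It was 0.151 and 0.186 with Nfat5-1-siRNA and 0.236 and 0.195 with Nfat5-2-siRNA, and the latter overlapped Neg-siRNA (500 mOsm). DLGAP5 relative to NCAPG stepped down without overlap at both steps, from 1.15 and 1.31 at 300 mOsm to 0.683 and 0.700 with Neg-siRNA at 500 mOsm, and to 0.287 and 0.310 with Nfat5-1-siRNA and 0.264 and 0.253 with Nfat5-2-siRNA. The level of each ratio to NCAPG has the same limit as the RPKM of NCAPG. These ratios are given as a description, without a test.

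**Figure D3:**
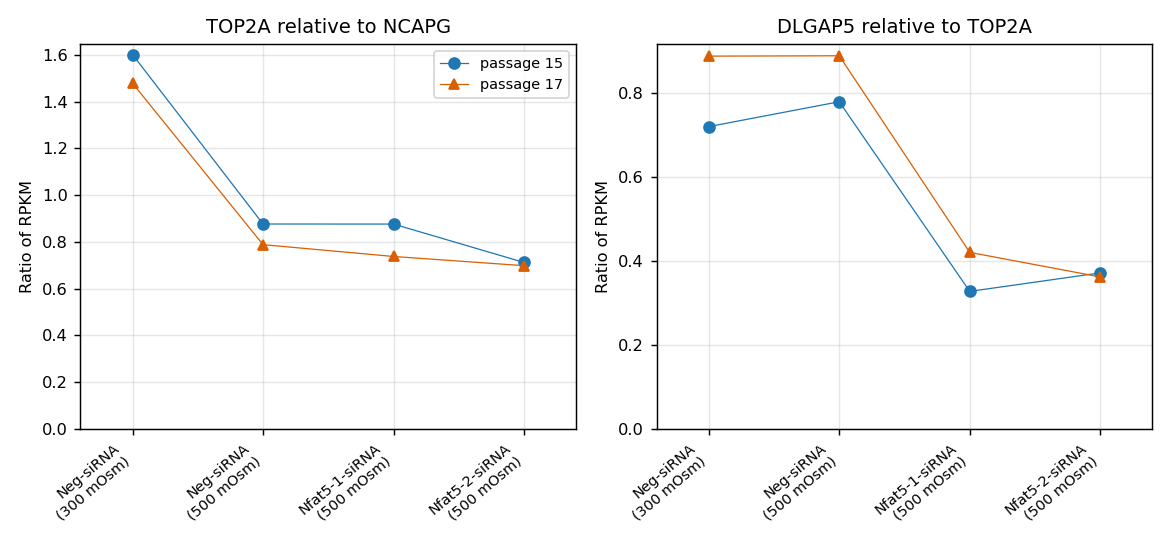
Ratio of RPKM of TOP2A to NCAPG (left) and of DLGAP5 to TOP2A (right) in each library, with circles for passage 15 and triangles for passage 17. The left ratio steps down between 300 and 500 mOsm, from 1.48 or more to 0.876 or less, and the right ratio steps down with either Nfat5-siRNA, from 0.720 or more to 0.420 or less.

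Whether the 2 constructs against Nfat5 lowered the genes to the same level was compared directly, Nfat5-2-siRNA against Nfat5-1-siRNA. No member passed the adjusted test in edgeR, where 8 genes (0.0403%) of all tested did and 14.9% had an unadjusted p under 0.05. DLGAP5 had a log2 difference of -0.44 (95% interval -0.84 to -0.04, adjusted p = 1 in edgeR), lower in both passages (-0.37 and -0.52). TOP2A had a difference of -0.45 (95% interval -0.92 to 0.02), NCAPG of -0.24 (-0.63 to 0.14) and HMMR of 0.15 (-0.31 to 0.61), each with an adjusted p of 1 in edgeR. TOP2A (-0.55 and -0.31) and NCAPG (-0.26 and -0.23) were also lower with Nfat5-2-siRNA in both passages. With passage as a block the adjusted p was 0.189 for TOP2A and 0.336 for DLGAP5 in edgeR, where 4.94% of all genes tested passed. The intervals reach down to -0.84 for DLGAP5 and -0.92 for TOP2A, so the constructs are not shown to act alike.

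Between passages, TOP2A was the only member with a call. It fell by 0.39 on the log2 scale from passage 15 to passage 17 (SE 0.09, adjusted p = 0.0199 in edgeR with group in the model), where 2.02% of all genes tested were called lower. Its differences in the 4 groups were -0.09, -0.53, -0.60 and -0.35, in the order in which the groups were introduced, so it was lower in 4 of 4. The call was lost with edgeR's filterByExpr (adjusted p = 0.411). It was also lost with a library of any group at 500 mOsm left out, with log2 changes from -0.40 to -0.32. The library left alone in its group then carries no information on passage. Leaving out either library of such a group therefore gave nearly the same value, and these are not separate checks. NCAPG had a difference of -0.25 (adjusted p = 0.842), DLGAP5 of -0.18 and HMMR of -0.05 (adjusted p = 1 for both). NCAPG, HMMR and DLGAP5 were higher at passage 17 in Neg-siRNA (300 mOsm), by 0.03, 0.36 and 0.22, and lower in each group at 500 mOsm. With 1 library left out, the passage difference of DLGAP5 ranged from -0.34 to -0.11 and that of NCAPG from -0.37 to -0.22.

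Other genes of the same processes could be followed only where the study's gene list pairs an identifier with a symbol, which held for 24 of 161 listed symbols, the 4 genes included. No subunit or regulator of cohesin (0 of 16) and no gene of the Ran pathway (0 of 8) could be paired. Since that list was chosen by significance in these libraries, the counts that follow are not independent evidence of a direction. The median log2 change over all genes tested was 0.004 with hyperosmolality, and -0.07 and -0.03 with the first and the second siRNA construct against Nfat5. In these comparisons 9.23%, 4.53% and 7.38% of all genes tested were called lower and 11.3%, 3.4% and 4.67% higher.

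Condensin had 2 of 8 subunits paired, NCAPG and NCAPH, both of condensin I. NCAPH, the subunit that closes the condensin ring, was at 119, 52.7, 24.6 and 20.8 CPM in the 4 groups and fell in each comparison, with log2 changes in edgeR of -1.18 for hyperosmolality and of -1.10 and -1.34 for the siRNA constructs. Hyperosmolality thus lowered NCAPH to a smaller share of its isosmotic level than NCAPG, and the siRNA constructs lowered it less, though the difference between the subunits was not tested. Of 6 DNA topoisomerases and of 5 DLGAP family genes, only TOP2A and DLGAP5 themselves were paired.

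Spindle assembly factors had 9 of 30 genes paired, HMMR and DLGAP5 among them, and 9 of 9 were called lower in each of the 3 comparisons (all genes tested 9.23%, 4.53% and 7.38%), with median log2 changes of -1.61, -1.41 and -1.82. CKAP2L, a spindle microtubule protein, had log2 changes of -2.80, -2.77 and -3.11, at 40.2, 5.77, 0.843 and 0.665 CPM in the 4 groups. It reached a mean of 5 CPM through its level in Neg-siRNA (300 mOsm). With the siRNA constructs its values rest on less than 1 CPM, so its falls are not ranked against those of DLGAP5. The smallest mean falls were in AURKA, the spindle pole kinase Aurora A (-0.81, -0.95 and -1.36), and NUSAP1, a microtubule-bundling protein (-1.68, -0.77 and -1.06).

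Of 13 mitotic kinases and chromosomal passenger proteins, 5 were paired. With hyperosmolality 4 were lower and 1 was higher, and with the siRNA constructs 3 and 4 were lower and none was higher, against the same shares of all genes tested, with medians of -1.14, -1.08 and -1.17. CCNB2, a B-type cyclin of mitotic entry, had log2 changes of -1.80, -2.33 and -2.67, and BUB1, a spindle checkpoint kinase, of -1.46, -2.25 and -2.46. CDCA8, the passenger protein borealin, fell with hyperosmolality (-1.03), and its values of -0.65 and -0.67 with the siRNA constructs did not pass (adjusted p = 0.0893 and 0.0578 in edgeR). VRK1, a chromatin kinase, rose by 0.84 with hyperosmolality, had -0.82 with Nfat5-1-siRNA (adjusted p = 0.0527 in edgeR) and fell with Nfat5-2-siRNA (-1.17). With passage as a block 5 of 5 were lower with either siRNA, where 11.9% and 15.3% of all genes tested were.

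Set against the 13 other mitotic genes of these lists, the 4 members had medians of -1.55, -1.88 and -2.04 in the 3 comparisons, and the others of -1.29, -1.12 and -1.66. None of the 13 lay below DLGAP5, the lowest member, with either siRNA, but CKAP2L did not differ from it beyond the SE. CKAP2L had -2.77 (SE 0.28) and -3.11 (SE 0.29), and DLGAP5 -2.81 (SE 0.19) and -3.25 (SE 0.19), so the 2 are not ranked. With hyperosmolality 2 of the 13 lay below HMMR, the lowest member there. CKAP2L, at 0.843 and 0.665 CPM with the siRNA constructs, is among the 13.

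**Figure D4:**
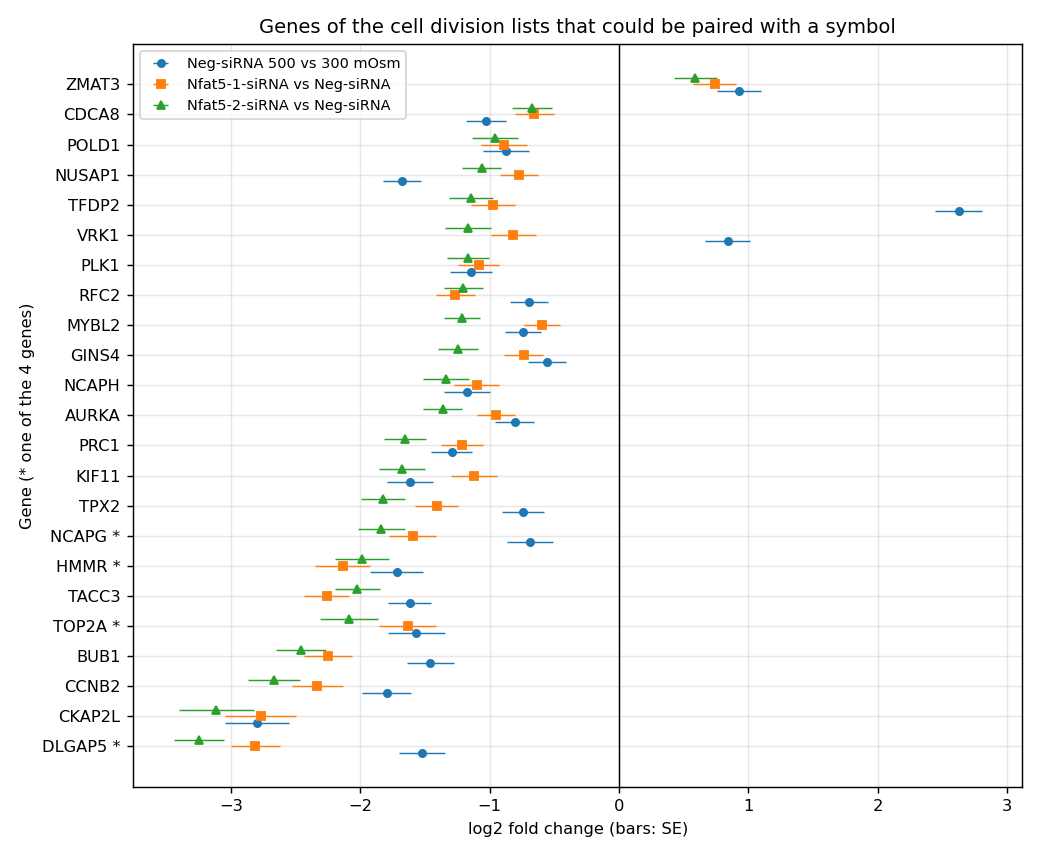
Log2 fold change (bars show the SE, edgeR) in the 3 comparisons for the genes of the cell division lists that could be paired with a symbol, ordered by Nfat5-2-siRNA, with an asterisk at the 4 genes. CEMIP, which rose in each comparison, is not drawn. DLGAP5 and CKAP2L, which lie within their SE of each other, are lowest with both siRNA constructs. VRK1 and TFDP2 lie above 0 with hyperosmolality and below 0 with Nfat5-siRNA.

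Genes upstream of mitosis were paired in small numbers. Of 19 transcription regulators of mitotic genes, 2 were: MYBL2, the B-Myb factor that activates late cell cycle genes, and TFDP2, a dimerisation partner of E2F factors. MYBL2 fell with hyperosmolality (-0.74) and with Nfat5-2-siRNA (-1.21), and had -0.59 with Nfat5-1-siRNA (adjusted p = 0.0835 in edgeR). With passage as a block MYBL2 was called lower with Nfat5-1-siRNA as well (adjusted p = 0.000761 in edgeR), where 11.9% of all genes tested were. TFDP2 rose by 2.63 with hyperosmolality, from 12.8 to 79.4 CPM, and fell with the siRNA constructs (-0.97 and -1.14), so it did not share the hyperosmotic direction of the 4 genes. Of 32 DNA replication genes 3 were paired, with medians of -0.70, -0.89 and -1.20. POLD1, the catalytic subunit of DNA polymerase delta, had log2 changes of -0.87, -0.89 and -0.96, and RFC2, a clamp loader subunit, of -0.70, -1.26 and -1.20. GINS4, a subunit of the replicative helicase, fell with the siRNA constructs (-0.74 and -1.24) and had -0.55 with hyperosmolality (adjusted p = 0.108 in edgeR). With passage as a block GINS4 was called lower with hyperosmolality too (adjusted p = 0.00319 in edgeR), where 15.7% of all genes tested were. ZMAT3, the 1 paired of 12 p53 targets, rose by 0.93 with hyperosmolality and had 0.74 and 0.59 with the siRNA constructs (adjusted p = 0.0725 and 0.195 in edgeR), and with passage as a block it was called higher in all 3, where 17.3%, 9.61% and 10.7% of all genes tested were. Of 14 genes of hyaluronan synthesis, binding and breakdown, HMMR and CEMIP were paired. CEMIP, which takes part in hyaluronan breakdown, rose by 4.63, 2.63 and 2.84 on the log2 scale, from 3.65 CPM in Neg-siRNA (300 mOsm) to 91.7 CPM in Neg-siRNA (500 mOsm), opposite to HMMR.

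The genes with the pattern most like the 4 were found by the root mean square difference, over the 8 libraries, between a gene's log2 CPM centred on its own mean and the mean of the 4 centred profiles, among those 10351 genes. The nearest was KIF20A, a kinesin of cytokinesis, at 0.0972, then BUB1 at 0.133 and its relative BUB1B, a spindle checkpoint protein, at 0.153. They were followed by DEPDC1 at 0.196, KNTC1, a kinetochore protein, at 0.2004, ZNF395 at 0.206, TACC3, which stabilises spindle microtubules, at 0.211, GTSE1 at 0.221, HJURP, the chaperone of the centromeric histone, at 0.221 and TROAP at 0.264. The median over all genes was 1.55. Of the members, TOP2A (0.176, place 4) and HMMR (0.213, place 9) were closer to their common mean than NCAPG (0.466, place 61) and DLGAP5 (0.476, place 65). Each member is part of that mean, which favours its place against genes outside it. No gene without a symbol lay within the distance of TROAP, and all genes were compared over the same 8 libraries.

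**Figure D5:**
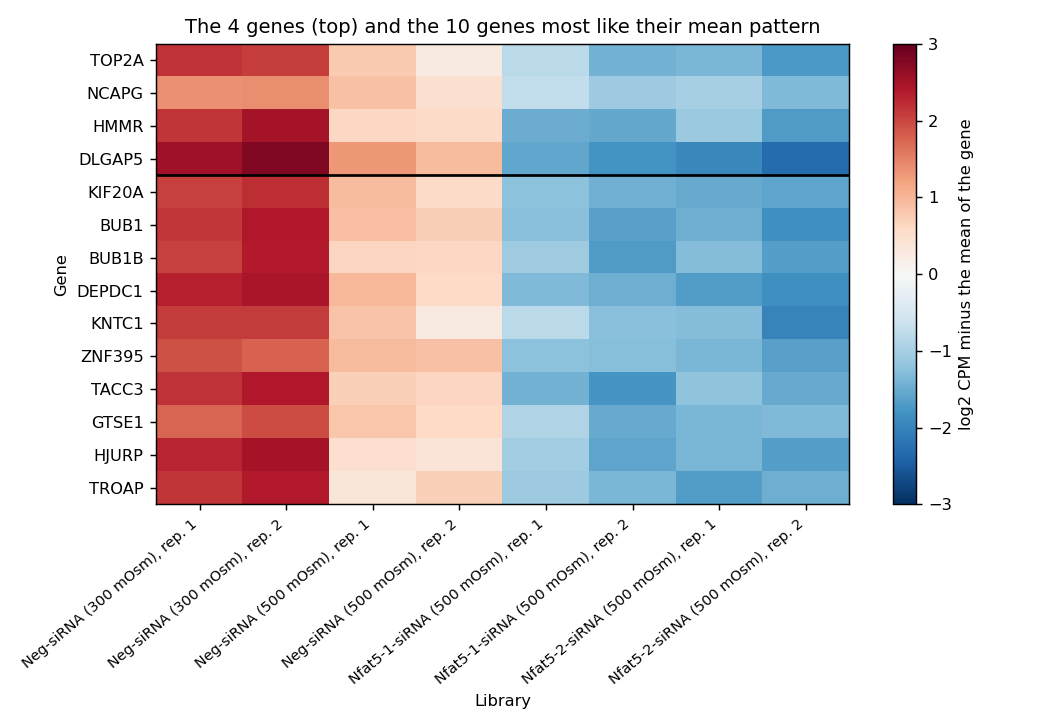
Log2 CPM minus the mean of the gene (colour) in each library (columns) for the 4 genes, above the line, and the 10 genes nearest to their mean pattern. In the columns of 300 mOsm NCAPG has the palest and DLGAP5 the deepest colours of the 4, and the 10 genes below share the order of the groups.

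The chromosomal neighbours of the 4 genes were compared too. Of the 8 nearest annotated genes that do not overlap them, 1 on either side of each, none was called lower in any of the 3 comparisons, where 9.23%, 4.53% and 7.38% of all genes tested were, so that 0 of 8 is near the background. In each comparison 2 were called higher, where 11.3%, 3.4% and 4.67% of all genes tested were. ENSCAFG00000017205 starts 547 bases from HMMR on the opposite strand, and it had log2 values of 0.11, -0.40 and -0.34 (adjusted p = 1 for each in edgeR), at 28.4, 30.5, 23.2 and 24.2 CPM in the 4 groups. IGFBP4, an IGF-binding protein whose gene lies 25605 bases from TOP2A, rose by 1.26, 1.61 and 1.14 on the log2 scale, from 7.09 ± 0.735 CPM (SD, n = 2) in Neg-siRNA (300 mOsm) to 17.0 ± 3.06 at 500 mOsm and to 52.0 ± 0.123 and 37.4 ± 5.08 with the siRNA constructs. ENSCAFG00000015013, 3507 bases from DLGAP5, rose by 1.03 with hyperosmolality, from 545.6 to 1110 CPM, and had 0.54 and -0.16 with the siRNA constructs (adjusted p = 0.218 and 1 in edgeR).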

How the data were processed

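RNA from 8 libraries of MDCK I cells was sequenced as paired reads of 51 bases. Per the labels and the file header, the authors mapped them with HISAT2 2.0.5 to CanFam3.1 and deposited raw counts per gene (featureCounts 1.5.1, Ensembl 92, strand ignored, no option for counting pairs, so mates may have been counted separately). The deposited table gives exonic lengths and positions, and 0 columns of library values were left unused. The study's gene list, of 989 genes with 860 symbols, also holds its own fold changes and p-values, which were not used. The RefSeq table holds 0 Ensembl identifiers, so no sequence was printed.

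Genes whose counts summed to 5 or more over the libraries entered the fit in edgeR 4.0.16 under R 4.3.3 (TMM, 4 groups, quasi-likelihood test, two-sided, Benjamini-Yekutieli adjustment over 19835 genes, threshold 0.05). The SE was computed from the F statistic. CPM used TMM-scaled library sizes (factors 0.883 to 1.12), log2 CPM a prior count of 2, and RPKM the exonic length. Passage was tested with group in the model. Replicate numbers pair the samples, since the labels give passage 15 for replicate 1 and passage 17 for replicate 2 of each group, and the passage differences of the groups correlated at 0.123 to 0.465 over 12424 genes. Alternatives were passage as a block, DESeq2 size factors, no filter, filterByExpr, Benjamini-Hochberg, DESeq2 1.42.0, only the 4 samples compared, and each library left out. The fits were tested on simulated data.

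Named were the 4 genes, all paired condensin, topoisomerase and DLGAP genes, the 2 lowest and 2 highest of each other list by mean log2 change among genes of at least 5 CPM, the nearest neighbours without overlap and the 10 genes most alike. Of the neighbours, 5 are given only in the counts. The members and lists were chosen with earlier results of these data known. Figures were drawn with matplotlib 3.10.9 in Python 3.11.15.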

Additional observations from a re-analysis of the deposited data

Results flagged for a closer look

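HMMR differed in direction between the passages when the siRNA constructs were compared. Nfat5-2-siRNA was above Nfat5-1-siRNA by 0.39 on the log2 scale in passage 15 and below it, at -0.16, in passage 17. Each value rests on 1 library per construct, and the difference between the passages was not tested.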

How the results depend on the processing

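Over the alternatives, the log2 changes of the 4 genes stayed below 0 with hyperosmolality and with both siRNA constructs, and the 44 values with Nfat5-2-siRNA all kept their call. NCAPG with hyperosmolality was called with passage as a block (-0.71), with no filter (-0.69), with the Benjamini-Hochberg adjustment (-0.69) and with DESeq2 (-0.70). It was not called with DESeq2 size factors in edgeR (-0.70), with filterByExpr (-0.69) or with only the 4 samples compared (-0.68). Its log2 change was -0.95 to -0.56 with 1 library left out. With Nfat5-1-siRNA, leaving out 1 library gave -1.97 to -1.28 for TOP2A and -1.78 to -1.33 for NCAPG, and 2 to 4 members called. The passage change of TOP2A was -0.39 with filterByExpr, where 0 members were called, and -0.51 to -0.32 with 1 library left out, where 0 to 1 were. HMMR changed sign with 1 library left out, from -0.18 to 0.42 between the constructs and from -0.23 to 0.11 between passages, without a call. Between the constructs TOP2A then ranged from -0.72 to -0.12, NCAPG from -0.41 to -0.05 and DLGAP5 from -0.65 to -0.26, also without a call. Among all genes tested, hyperosmolality called 4077, and 6565 with the replicate block, 7033 with Benjamini-Hochberg and 2384 to 2672 with 1 library left out. Nfat5-1-siRNA called 1572, and 4264 with the block, 2866 with no filter, 4033 with Benjamini-Hochberg, 2682 with DESeq2 and 159 to 680 with 1 library left out. Nfat5-2-siRNA called 2390, and 5168 with the block, 3760 with no filter, 5250 with Benjamini-Hochberg, 1565 with only the 4 samples compared and 954 to 1280 with 1 library left out. Between the constructs 8 were called, and 979 with the block, 34 with DESeq2 size factors, 337 with no filter, 0 with filterByExpr, 186 with Benjamini-Hochberg, 213 with DESeq2, 0 with only the 4 samples compared and 0 to 3 with 1 library left out. Passage called 653, and 101 with filterByExpr, 1570 with Benjamini-Hochberg and 315 to 681 with 1 library left out. Fewer libraries entered the fits with 1 left out or with 4 samples, and otherwise the cause was not tested. With 1 library left out its group is a single library, so the spread in those fits comes from the other groups. The block changed no other call of a member. DESeq2's size factors moved the median log2 change of all genes by at most 0.031 with hyperosmolality and with either siRNA construct against Neg-siRNA. The lowest count of a member in a library was 158, for HMMR, and 2 libraries per group limit the precision of every value.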
